A study of Glycine max with 12 samples.

Results

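Transcript levels in the black saddle of immature soybean (Glycine max) seed coats were compared between the line Clark 18a, which carries the alleles i-i and k1, and the line Clark 8, which carries i-k and K1. The comparison takes every black saddle library of the study, which is 6 of its 12 libraries: 3 of Clark 18a (k1) and 3 of Clark 8 (K1). The other 6 libraries come from the yellow region of the same lines. Plants grew in a greenhouse, seeds were taken at 100 to 200 mg fresh weight, coats were removed from the cotyledons and cut into the regions that would become black or yellow, and the tissue was freeze-dried before polyadenylated RNA was extracted. For each gene the model with the longest cDNA was used. The lines differ at both the I and the K1 locus, so the effects of these loci cannot be told apart. Each line stands for its genotype as a single line, and the labels call the libraries biological repeats without tying each to its own plants; the p-values thus rest on the spread among these libraries, which may be technical. In whole dissected tissue, fewer cells of a type and less RNA per cell cannot be told apart.

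Chalcone synthase joins malonyl and coumaroyl units into the first flavonoid, from which the anthocyanins and procyanidins of a dark seed coat are made. In soybean the I locus is known as a cluster of chalcone synthase genes whose inverted copies give rise to small RNAs that silence chalcone synthase in the coat. A saddle forms where that silencing is absent or relieved. Argonaute proteins bind small RNAs and use them to find the transcripts to be silenced, and the title of the study links K1 to Argonaute5.

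The table of the authors gives no gene names beside its Glyma identifiers, and 0 of the 59048 rows of the RefSeq table (assembly Glycine_max_v4.0) carry such an identifier. Glyma.11G190900 is therefore only recalled from the literature as AGO5, and 14 identifiers are only recalled as chalcone synthases. RefSeq lists 1 gene with the symbol AGO5, on chromosome 11, and 8 protein-coding chalcone synthases on chromosome 8, where the recalled list also has 8. The recalled list is not complete: RefSeq has 16 protein-coding chalcone synthases, of which those on chromosomes 6 and 19, 1 each, have no recalled identifier. Those 8 identifiers are the 8 genes with a coding length of 1167 bases in their stretch of chromosome 8. All other genes are given by identifier, with no role.

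The summed hits of the black libraries were 175673530, 118123345 and 85273071 in Clark 18a repeats 1 to 3, against 124176419, 136249808 and 83123127 in Clark 8. Values are RPKM, the hits on a transcript corrected for its length and for the depth of the library. Repeats 1 and 2 of each line have library numbers close to each other, whereas repeat 3 of Clark 18a and repeat 3 of Clark 8 were numbered together. On log2(RPKM + 1), Clark 18a repeat 3 correlated at 0.960 with Clark 8 repeat 3, and at 0.871 and 0.898 with repeats 1 and 2 of its own line. The 3 black libraries of Clark 8 correlated with each other at 0.936 to 0.977. Because repeat 3 stands apart in this way, the difference within that pair is given beside the results.

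Of the 30775 genes tested, 25 (0.0812%) differed between the lines in the black saddle at an adjusted p under 0.05 in limma with Benjamini-Hochberg adjustment. Of these, 6 were higher in Clark 18a (0.0195% of the genes tested) and 19 were lower (0.0617%). The median difference over all genes tested was 0.02 on the log2(RPKM + 1) scale, which understates the change of low genes. The recalled chalcone synthases made up 9 of the 25, all lower in Clark 18a. With the repeat number as a block the count was 52 (0.169%), 21 higher (0.0682%) and 31 lower (0.101%), and it held all 25. Without the repeat 3 libraries it was 1240 (4.03%), 944 higher (3.07%) and 296 lower (0.962%), and again held all 25. Leaving out Clark 18a black repeat 3 alone gave 45 calls, 21 of them among the 25.

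The 8 recalled chalcone synthases on chromosome 8 all fell in Clark 18a. In the black saddle their levels ran from 2.15 to 6.13 RPKM in the 3 Clark 18a libraries, against 12.1 to 27.1 RPKM in the 3 Clark 8 libraries. Their log2 differences ran from -2.06 to -1.68 with adjusted p of 0.00122 to 0.0035, and the mean level was 3.87 to 4.83 times higher in Clark 8. All 8 remained called under each of the 25 alternative settings.

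Glyma.08G110900, the most abundant of them in black Clark 18a, measured 4.34, 6.13 and 5.82 RPKM in Clark 18a and 25.3, 25.3 and 24.6 RPKM in Clark 8. Glyma.08G109300, with the smallest difference, measured 2.67, 3.27 and 3.67 RPKM in Clark 18a and 12.5, 12.5 and 12.2 RPKM in Clark 8. In neither gene did the lines overlap, and repeat 3 lay with the other repeats of its line. Summed per library, the 8 identifiers held 27.9, 39.5 and 39.3 RPKM in Clark 18a, against 160, 161.1 and 167 RPKM in Clark 8. In the yellow region the sums were closer, at 20.2, 23.0 and 31.4 RPKM in Clark 18a and 44.1, 40.6 and 26.0 RPKM in Clark 8, and in repeat 3 the order was turned.

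The 8 are not independent measurements. Glyma.08G109200, Glyma.08G110500 and Glyma.08G110700 had 1020, 1025 and 1027 hits in Clark 18a black repeat 1, and 4159, 4227 and 4227 hits in Clark 8 black repeat 1. Over all 12 libraries the gap among these 3 genes was at most 2.97%. In Clark 18a black repeat 3 each of the 3 had 715 hits. How hits on near-identical copies were assigned is not given in the sources used here, so the level of a single copy is uncertain. The sums over the 8 identifiers may count the same hit more than once.

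The 6 recalled chalcone synthases on other chromosomes gave 1 call among 5 tested. Glyma.05G153200 fell in Clark 18a, with 2.25, 2.99 and 2.32 RPKM against 7.58, 6.47 and 6.80 RPKM in Clark 8 (log2 -1.18, SE 0.13, adjusted p = 0.00413). Its call was lost with a minimum of 5 RPKM or with only the 6 black libraries in the fit, where the adjusted p reached 0.148.

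The abundant pair of the list was Glyma.01G228700 and Glyma.11G011500. Glyma.01G228700 had 130, 287 and 215 RPKM in Clark 18a and 310, 325 and 268 RPKM in Clark 8, and Glyma.11G011500 had 92.3, 206 and 144 RPKM in Clark 18a and 188, 195 and 176 RPKM in Clark 8. Clark 18a repeat 1 was the low library in both, and the lines overlapped in both. Their log2 differences were -0.58 and -0.41 with adjusted p of 0.955 and 0.984, and in the repeat 3 pair they were -0.31 and -0.29.

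The remaining members were low. Glyma.01G091400 measured 1.05, 1.51 and 0.463 RPKM in Clark 18a and 1.92, 1.71 and 1.74 RPKM in Clark 8 (adjusted p = 0.882), and Glyma.09G075200 measured 0.947, 1.43 and 0.201 RPKM in Clark 18a and 1.5, 1.34 and 0.852 RPKM in Clark 8 (adjusted p = 0.977). Glyma.02G130400 did not reach the minimum level and was not tested. Over the 13 members of this incomplete list that were tested, 9 were called lower and 0 higher, beside 0.0617% of all genes tested called lower. All 13 log2 differences were below 0, with a median of -1.92, beside 0.02 over all genes. Of the 13, 8 are the chromosome 8 members, which are not independent measurements. The 5 tested on other chromosomes had a median of -0.51, with 1 called lower.

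**Figure D1:**
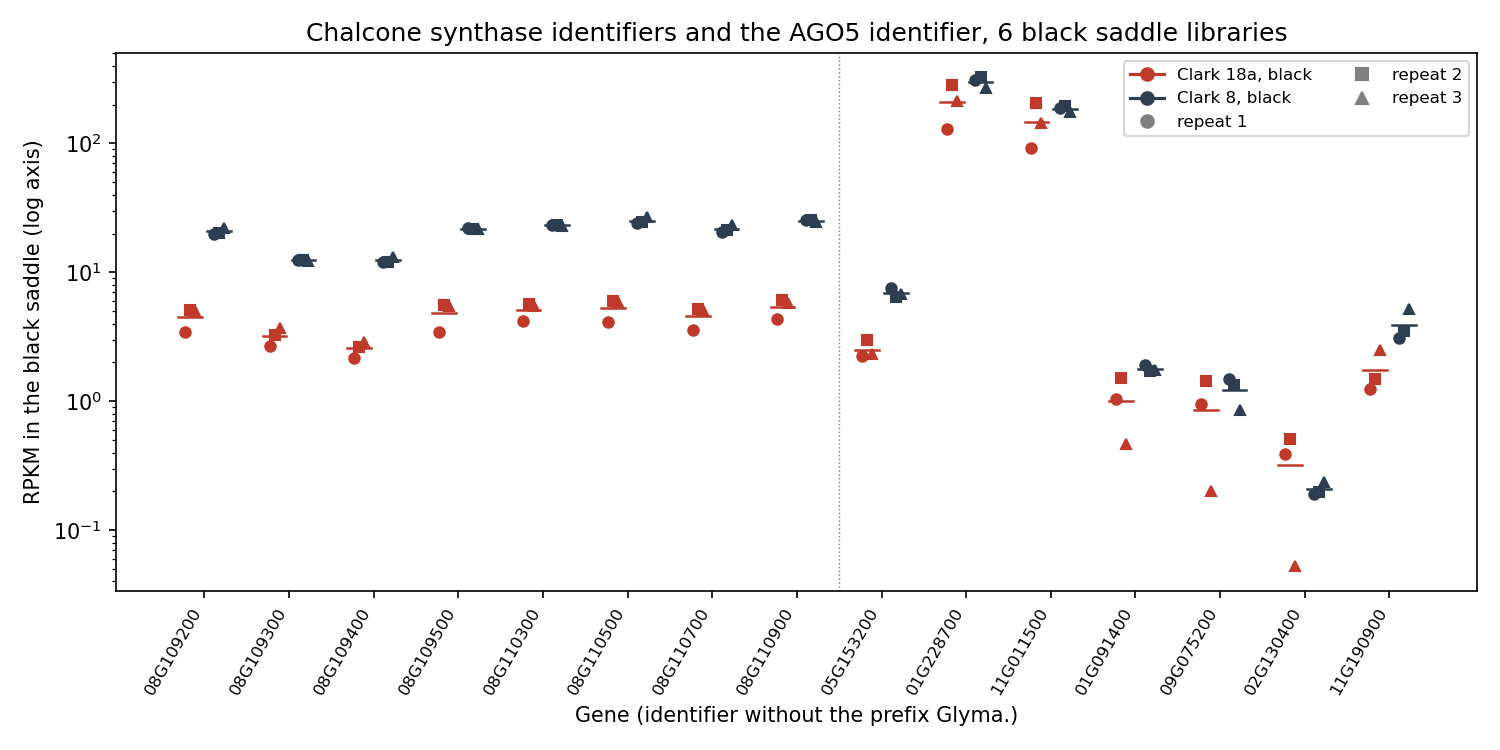
RPKM (log axis) of the 14 identifiers recalled as chalcone synthases and of Glyma.11G190900, recalled as AGO5, in each black saddle library, with Clark 18a left of Clark 8, a symbol per repeat and a horizontal line at the mean of the 3 libraries. On chromosome 8 the 3 Clark 18a libraries sit between 2.15 and 6.13 RPKM and the 3 Clark 8 libraries between 12.1 and 27.1 RPKM.

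The chromosome 8 members lie within a run of 21 consecutive identifiers, Glyma.08G109100 to Glyma.08G111100. Of the 19 genes tested in the run, 10 were lower in Clark 18a by the test and 0 were higher, beside 0.0617% of all genes tested called lower. Of the 10, 8 are the recalled chalcone synthases, which are not independent measurements. The called genes outside the recalled list are Glyma.08G110400 and Glyma.08G111000. Glyma.08G110400, with a coding length of 1023 bases, had 4.35, 6.41 and 6.19 RPKM in Clark 18a and 25.9, 25.7 and 30.7 RPKM in Clark 8 (log2 -2.11, adjusted p = 0.00122). The recalled Glyma.08G110500 had 4.11, 5.98 and 5.90 RPKM in Clark 18a and 24.0, 24.6 and 27.1 RPKM in Clark 8. Glyma.08G110400 thus ran close to it in every black library, and whether they share hits was not tested. Glyma.08G111000 had 6.56, 6.39 and 5.08 RPKM in Clark 18a and 18.7, 14.9 and 14.7 RPKM in Clark 8 (log2 -1.28, adjusted p = 0.00704), a call lost without Clark 8 black repeat 1 and with only the 6 black libraries, up to an adjusted p of 0.174.

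Not every gene of the run was lower. Among its genes that were not called, Glyma.08G109800 gave a log2 difference of -1.68, with 34.3, 37.1 and 38.1 RPKM in Clark 18a and 80.8, 157 and 132 RPKM in Clark 8 (adjusted p = 0.277). Glyma.08G110800, which stands between recalled members, gave the opposite sign: 1.87, 1.55 and 4.53 RPKM in Clark 18a and 0.0327, 0 and 0.196 RPKM in Clark 8 (log2 1.68, adjusted p = 0.145). With the repeat as a block Glyma.08G110800 was called (adjusted p = 0.0211). Between Glyma.08G109800 and Glyma.08G110300, Glyma.08G109900 and Glyma.08G110100 gave 0.50 and 0.04.

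**Figure D2:**
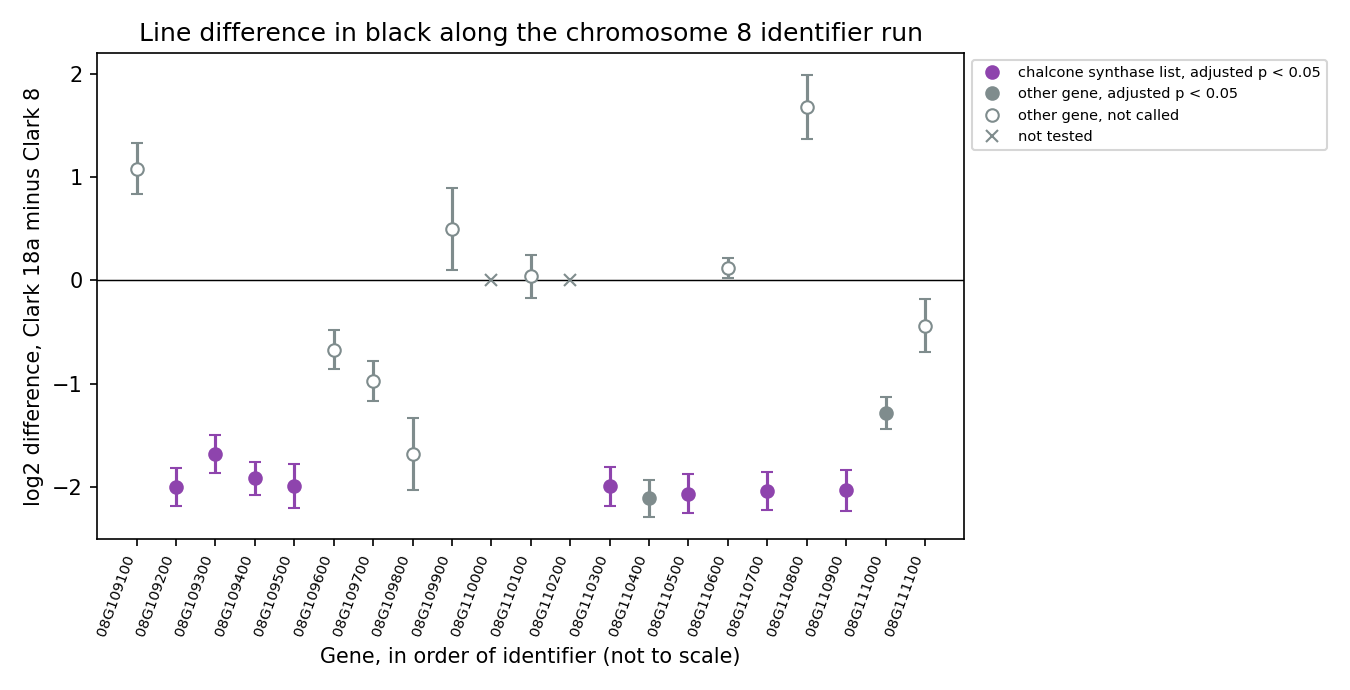
Log2 difference in the black saddle, Clark 18a minus Clark 8, for the run of 21 identifiers on chromosome 8, in identifier order, with bars of 1 standard error from limma; filled points passed the test, and crosses mark the 2 genes not tested, which have no value. The 8 recalled chalcone synthases lie between -2.06 and -1.68, while Glyma.08G109100 (1.08) and Glyma.08G110800 (1.68) lie above 0.

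Glyma.11G190900, the identifier recalled as AGO5, had 1.26, 1.48 and 2.50 RPKM in Clark 18a and 3.12, 3.48 and 5.20 RPKM in Clark 8. The lines did not overlap, and repeat 3 was the highest library in each. The log2 difference was -0.85 (SE 0.27) and did not pass, with an adjusted p of 0.752 in limma and rank 354 among the 30775 unadjusted p-values. The 3 repeat pairs gave -0.87, -0.85 and -0.83, so the pair numbered together showed a similar size on the log2(RPKM + 1) scale. That scale understates the change more at lower levels, so similar sizes on it do not mean equal ratios. Its adjusted p ran from 0.00761 to 1 over the alternatives. It passed in 3 of 25, each of them without the repeat 3 libraries, and was 0.316 with the repeat block.

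In the yellow region the same gene had 0.810, 0.949 and 1.66 RPKM in Clark 18a and 8.58, 9.59 and 4.68 RPKM in Clark 8, and there the difference passed (log2 -1.98, adjusted p = 0.0209). That call was lost without yellow repeat 1 or 2 of either line, at adjusted p of 0.111 to 0.138. The black difference minus the yellow difference was 1.13 (SE 0.38) with an adjusted p of 1, so the regions were not shown to differ; 5 genes (0.0162%) passed that test, and 0 passed it with the repeat block, where 1405 had an unadjusted p under 0.05 in limma. Across the genes tested, 2460 (7.99%) had lines that did not overlap in black, 902 of them (2.93%) lower in Clark 18a, so the lack of overlap at Glyma.11G190900 is shared with many genes.

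Of the 16 called genes outside the recalled list, 6 rose in Clark 18a. On the log2(RPKM + 1) scale the largest difference was at Glyma.15G115300, with 13.4, 38.6 and 40.9 RPKM in Clark 18a and 1.25, 1.67 and 0.551 RPKM in Clark 8, a ratio of means of 26.9 (log2 3.78, SE 0.40, adjusted p = 0.00318). Its repeat pairs gave 2.68, 3.89 and 4.76, and its call was lost with voom and with only the 6 black libraries. Glyma.14G033900 had 18.2, 19.1 and 22.4 RPKM in Clark 18a and 3.64, 3.17 and 4.77 RPKM in Clark 8 (log2 2.11, SE 0.18, adjusted p = 0.00122). It was the 1 gene higher in Clark 18a that was called under all 25 alternatives, and its 3 pairs gave 2.05, 2.27 and 2.02.

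Glyma.10G113600 was near 0 in Clark 8, with 1.82, 3.56 and 2.06 RPKM in Clark 18a and 0.115, 0.042 and 0.103 RPKM in Clark 8, a ratio of means of 28.6 (log2 1.65, adjusted p = 0.0035). In yellow it had 9.42, 8.19 and 11 RPKM in Clark 18a and 0.124, 0.0523 and 0.302 RPKM in Clark 8 (log2 3.18, adjusted p = 6.36e-05). The line difference thus appeared in both regions, and the regions were not shown to differ in it (interaction adjusted p = 0.258).

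Glyma.10G094900 had 4.54, 5.11 and 4.06 RPKM in Clark 18a and 1.77, 1.3 and 1.62 RPKM in Clark 8 (log2 1.12). The other genes that rose were low: Glyma.02G179400 had 1.31, 0.80 and 1.53 RPKM in Clark 18a and 0.0461, 0.0105 and 0 RPKM in Clark 8 (log2 1.11), and Glyma.12G207100 had 1.22, 1.43 and 1.06 RPKM in Clark 18a and 0.364, 0.207 and 0.204 RPKM in Clark 8 (log2 0.83). Their adjusted p-values were 0.0035, 0.0142 and 0.0432 in limma. The call of Glyma.12G207100 was present in 10 of 24 alternatives and that of Glyma.02G179400 in 17 of 23.

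The other 10 fell in Clark 18a. The smallest adjusted p of the whole comparison belonged to Glyma.11G073700, with 2.78, 2.60 and 2.58 RPKM in Clark 18a and 17.2, 17.9 and 19.3 RPKM in Clark 8 (log2 -2.39, SE 0.12, adjusted p = 2.73e-05). Its pairs gave -2.27, -2.40 and -2.50, and it was called under all 25 alternatives. In yellow it was lower in Clark 18a by 0.85 on the log2 scale (adjusted p = 0.0267, and up to 0.147 when 1 library was left out), and the black difference exceeded the yellow one by the interaction (log2 -1.54, SE 0.18, adjusted p = 0.0286). With the repeat as a block the interaction did not pass (adjusted p = 0.0602). Glyma.01G221300 had 1.79, 2.23 and 2.55 RPKM in Clark 18a and 7.58, 8.03 and 6.69 RPKM in Clark 8 (log2 -1.41, adjusted p = 0.00122), with a yellow difference of -1.40.

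Apart from these genes and those of the chromosome 8 run, the genes that fell stayed at or below 2.27 RPKM in every black library. Glyma.14G034100 had 0.201, 0.256 and 0.0657 RPKM in Clark 18a and 1.81, 1.53 and 2.02 RPKM in Clark 8 (log2 -1.25, adjusted p = 0.00224). Glyma.08G028700 had 0.143, 0.0773 and 0 RPKM in Clark 18a and 1.71, 2.08 and 1.07 RPKM in Clark 8 (log2 -1.27, adjusted p = 0.0172). Clark 18a was near 0 in both genes and the lines did not overlap.

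Glyma.11G065900 (log2 -1.27), Glyma.07G172100 and Glyma.07G164400 (log2 -1.18 each) and Glyma.17G054500 (log2 -0.75) had adjusted p-values between 0.0349 and 0.0435 and were called in 10 or 11 of 24 alternatives. Glyma.17G054500 measured 0.396, 0.488 and 0.483 RPKM in Clark 18a and 1.43, 1.48 and 1.44 RPKM in Clark 8. Glyma.07G172100 and Glyma.07G164400 count as 1 measurement: their hits differed by at most 1 in every library, with 66 and 66 in Clark 18a black repeat 1 and 225 and 224 in Clark 8 black repeat 2.

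In all, 11 of the 25 genes were called under each of the 25 alternatives. These are the 8 recalled chalcone synthases of chromosome 8, Glyma.08G110400, Glyma.11G073700 and Glyma.14G033900. The 8 are not independent measurements, and whether Glyma.08G110400 shares hits with them was not tested. The other 14 lost their call under at least 1 alternative. Of the 25, 24 had the same sign in the yellow region and 11 were also called there in that direction, where 127 of all genes tested (0.413%) were called in either direction. A shared sign was common: over all genes tested, 75.4% had the same sign in yellow as in black in repeats 1 and 2. That share was not computed over all repeats. The 25 also include the chromosome 7 pair that counts as 1 measurement. The yellow libraries are not a fully separate reading, because yellow and black libraries of the same number deviated together within each line, at correlations across genes of 0.522 to 0.745.

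**Figure D3:**
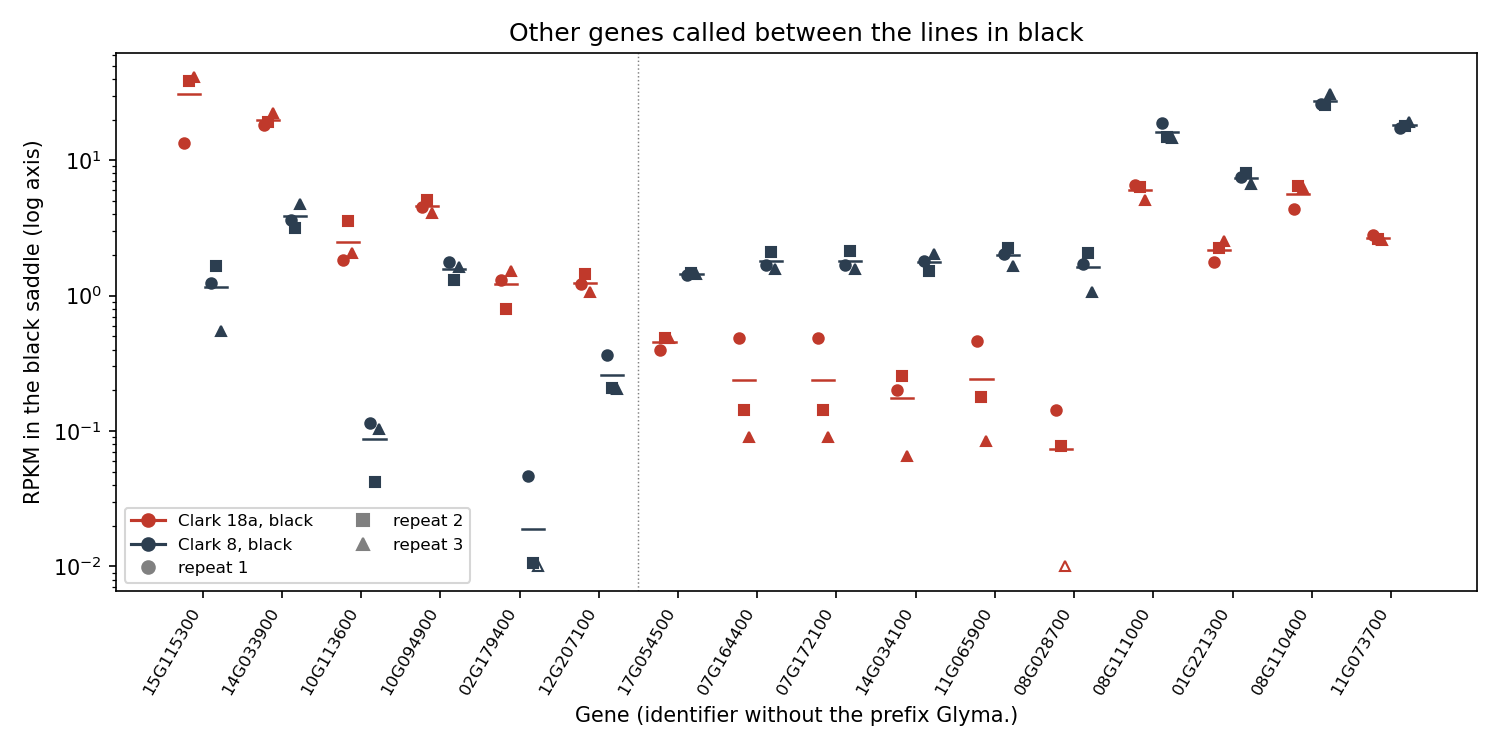
RPKM (log axis) of the 16 called genes outside the recalled chalcone synthases in each black saddle library, with Clark 18a left of Clark 8 within each gene, a line at each mean, and values below 0.01 drawn as open symbols at 0.01. The 6 genes higher in Clark 18a stand left of the dotted line and the 10 lower ones right of it. The lines do not overlap in any of the 16, but these genes were called on the same libraries. Over all genes tested, 7.99% do not overlap.

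The repeat 3 pair was not used in the fit on repeats 1 and 2 and so gives a reading of its 1240 calls. Of these, 622 (50.2%, exact 95% interval 47.3 to 53.0, for counting error only, since genes are not independent) had the same direction in repeat 3. A called gene with a difference of exactly 0 there, such as Glyma.04G138100 or Glyma.18G192700, was counted as not having the same direction. The share among called genes with any direction in repeat 3 is thus higher. The same rule was used over all genes tested. The share was 474 of 944 for genes higher in Clark 18a and 148 of 296 for genes lower. Over all genes tested, 14637 of 30775 (47.6%) had the same sign in repeat 3 as in repeats 1 and 2. The called genes had a median difference of 1.01 in their own direction in repeats 1 and 2, and of 0.00 in repeat 3.

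In the yellow libraries of repeats 1 and 2 the same genes read differently, with 1211 of 1240 (97.7%) in the same direction, beside 75.4% over all genes tested. In the yellow libraries of repeat 3 the share was 728 of 1240 (58.7%), beside 54.7% over all genes. The pair numbered together was not the most spread: the log2 differences between the lines had an SD over genes of 0.410 in repeat 3, and of 0.493 and 0.494 in repeats 1 and 2. Among the 804 genes (2.61%) that differed by at least 1 in repeat 3, 427 (53.1%) had the same direction in repeats 1 and 2.

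Few of the calls were as large in repeat 3. Of the 1240, 41 differed in repeat 3 by at least 1 in the same direction. They were 15 of the 944 higher in Clark 18a and 26 of the 296 lower. Over all genes tested, 427 of 30775 differed in repeat 3 by at least 1 in the direction of repeats 1 and 2. Chromosome 8 held 15 of the 41 (36.6%), beside 84 of the 1240 (6.77%) and 2114 of the 30775 genes tested (6.87%), and 8 of the 15 are the recalled chalcone synthases, which share hits. Of the 41, 22 were among the 25 genes called with all repeats and 19 were not. Of the 25, all had the same sign in the repeat 3 pair and the smallest difference there was 0.72, but that pair was part of the fit that called them.

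**Figure D4:**
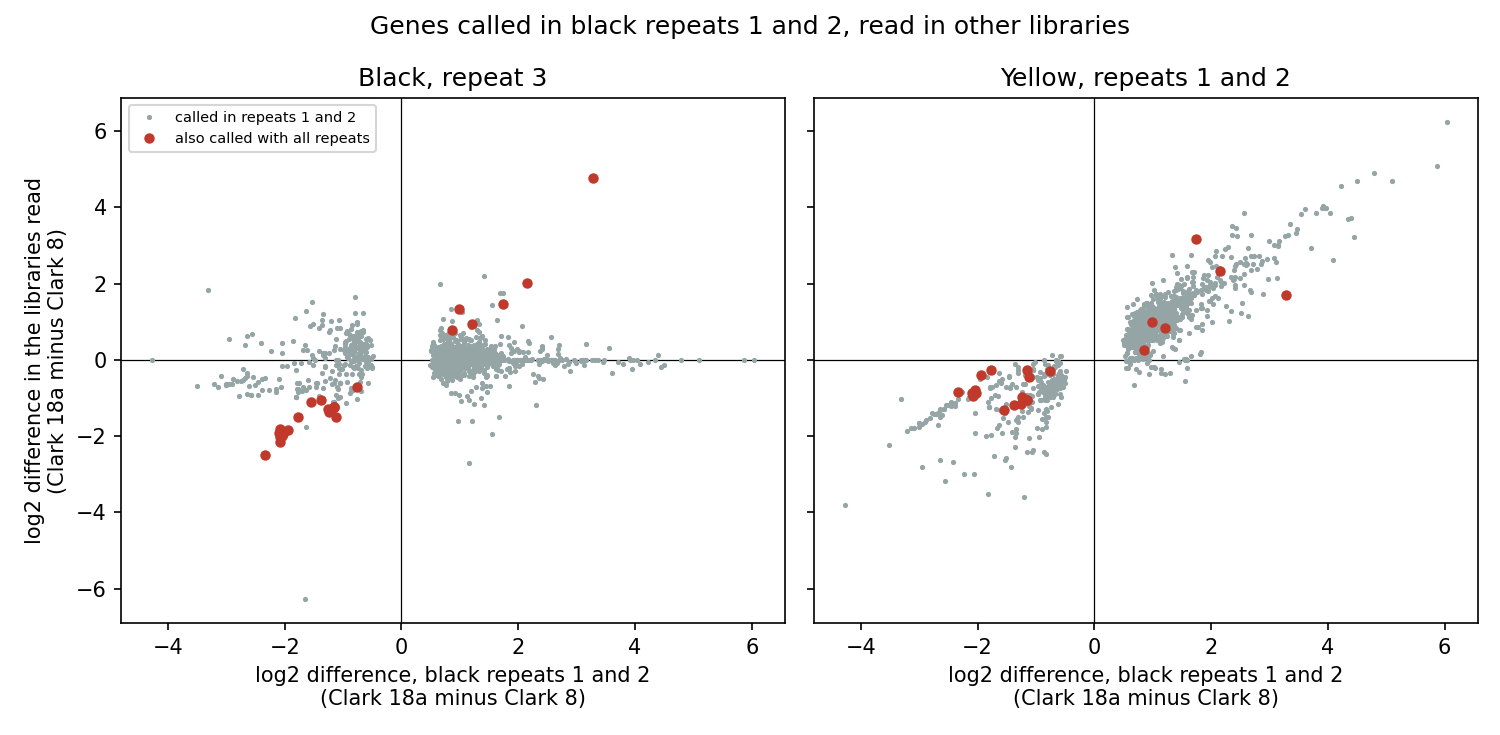
Log2 difference, Clark 18a minus Clark 8, of the genes called in black repeats 1 and 2, plotted against the same difference in the repeat 3 pair of the black saddle and against the yellow libraries of repeats 1 and 2. In repeat 3, 622 of 1240 share their direction, and in yellow 1211 of 1240 do.

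Among the 19 held genes that were not called with all repeats, those with the largest differences higher in Clark 18a were Glyma.10G111600, Glyma.01G215400, Glyma.08G110800, Glyma.08G238100 and Glyma.01G014300. Glyma.10G111600 had 5.66, 8.21 and 14.1 RPKM in Clark 18a and 0.930, 1.83 and 3.44 RPKM in Clark 8 (log2 1.75, adjusted p = 0.519, pairs 1.79, 1.70 and 1.77). Repeat 3 was the highest library of each line and the lines did not overlap, and with the repeat block the adjusted p was 0.0069. Glyma.01G215400 had 5.86, 10.9 and 14.8 RPKM in Clark 18a and 1.46, 2.17 and 3.65 RPKM in Clark 8 (log2 1.72, adjusted p = 0.127, and 0.0135 with the block).

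Glyma.08G238100 had 3.86, 5.39 and 9.28 RPKM in Clark 18a and 0.412, 1.59 and 2.76 RPKM in Clark 8 (adjusted p = 0.351), and its yellow difference was 0.05. Glyma.01G014300 had 30.7, 33.3 and 5.95 RPKM in Clark 18a and 8.55, 10.9 and 2.36 RPKM in Clark 8, which overlap (adjusted p = 0.904). In this gene repeat 3 was the lowest library of each line.

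On the lower side the largest was Glyma.08G228400, with 81.6, 56.3 and 0.0601 RPKM in Clark 18a and 200, 232 and 81.5 RPKM in Clark 8 (log2 -3.20, SE 1.27, adjusted p = 0.882). Its pairs gave -1.28, -2.02 and -6.28, and the level near 0 was that of 1 library, Clark 18a repeat 3. Glyma.08G109800 of the chromosome 8 run followed. The next were Glyma.12G160600, Glyma.15G156000 and Glyma.U007100, with log2 differences of -1.15 to -1.14, an adjusted p of 0.0612 and 0.0211 with the block. These 3 share a coding length of 546 bases with the called pair on chromosome 7, and their hits differed from each other by at most 1 in every library, with 52 each in Clark 18a black repeat 1.

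Some genes had no hit in the black saddle of Clark 8 at all. In 46 genes all 3 Clark 8 black libraries were at 0 hits while the Clark 18a mean was at least 1 RPKM, and 0 genes showed the opposite. Of the 46, 43 were also at 0 hits in Clark 18a black repeat 3, where the highest had 1 hit, so their level came from Clark 18a repeats 1 and 2. Of these genes 40 passed the filter and 0 were called in limma, where 1726 of all genes tested had an unadjusted p under 0.05. In Clark 18a yellow repeats 1 and 2, 39 of the 46 reached 1 RPKM, 36 were at 0 in all 4 repeat 3 libraries, and 37 were at 0 in all 6 Clark 8 libraries.

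The highest was Glyma.04G138100, with 31.0, 107 and 0 RPKM in Clark 18a and 0 RPKM in each Clark 8 library, where 3 hits in a single library would be 0.106 to 0.174 RPKM. Its yellow levels in Clark 18a were 23.7, 45.9 and 0 RPKM. Glyma.U001200 had 24.3, 79.9 and 0 RPKM in black Clark 18a, and in yellow Clark 18a at most 0.307 RPKM. The next were Glyma.18G192700 with 35.2, 31.1 and 0 RPKM, Glyma.18G103200 with 7.85, 24.6 and 0 RPKM and Glyma.02G295700 with 18.8, 12.6 and 0 RPKM in black Clark 18a. Presence in repeats 1 and 2 and absence in repeat 3 of the same line thus held in each of these genes.

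**Figure D5:**
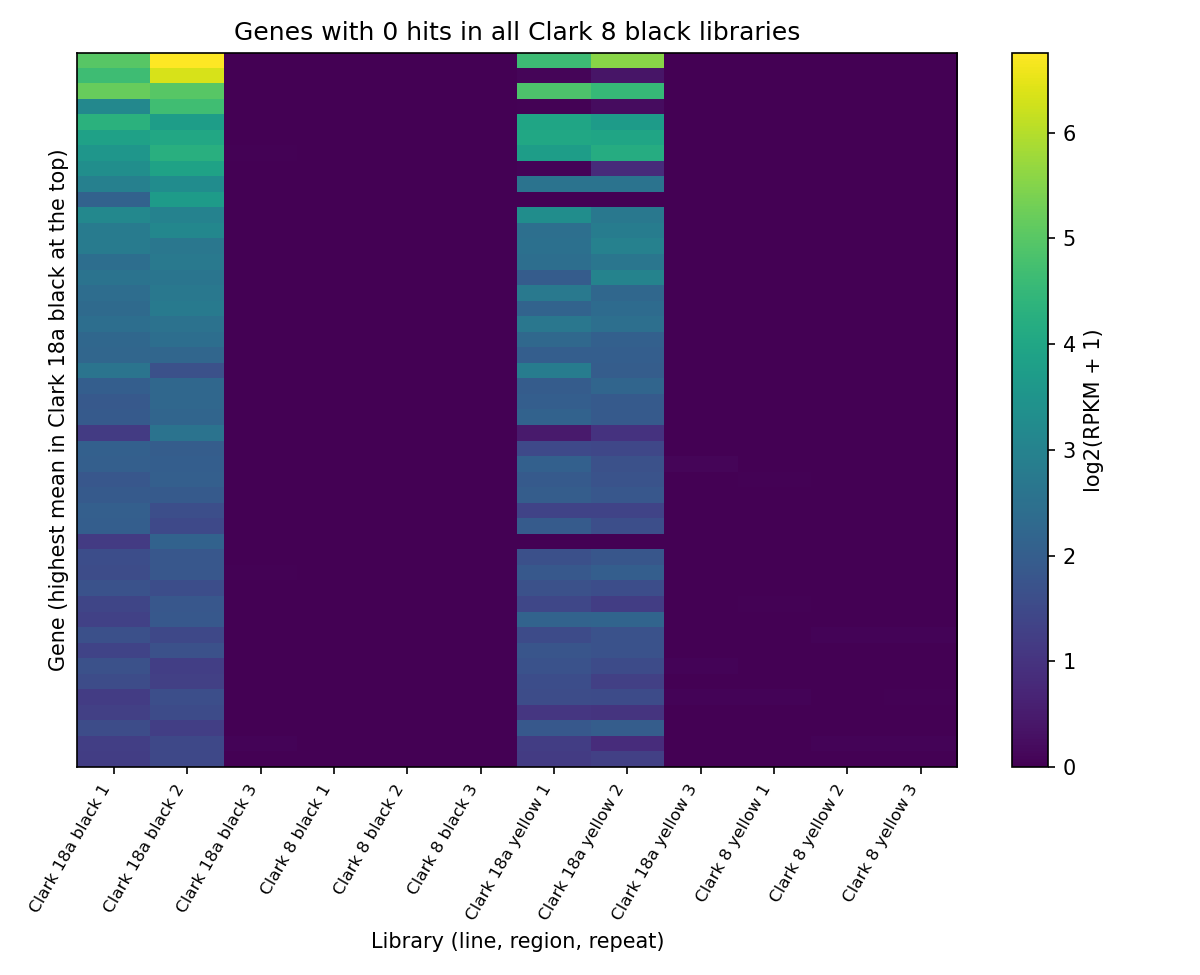
Levels as log2(RPKM + 1) (colour) of the 46 genes with 0 hits in all 3 Clark 8 black libraries and a mean of at least 1 RPKM in Clark 18a black, in each of the 12 libraries, with Clark 18a left of Clark 8 in each region. The signal lies in repeats 1 and 2 of Clark 18a, and 43 of the 46 have 0 hits in Clark 18a black repeat 3.

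The coats were dissected from cotyledons, so identifiers recalled as seed storage proteins, which the embryo makes in bulk, were summed as a marker of that tissue. The 11 identifiers held 63.9, 231 and 28.2 RPKM in black Clark 18a and 43.1, 48.0 and 36.5 RPKM in black Clark 8. Clark 18a repeat 2 stood above the other black libraries. Clark 18a repeat 1 also lay above each Clark 8 library and repeat 3 below each, so the other libraries of the lines overlapped. Of the 11, 10 were tested and 0 were called (adjusted p of 0.898 to 0.998 in limma), beside 0.0812% of all genes tested. Their median log2 difference was 0.60, beside 0.02 over all genes, and 0 of the 10 were below 0. In every library 1 of the 11 was at 0. Without Clark 18a black repeat 2 the count of called genes was 19, all of them among the 25, and the 8 recalled chalcone synthases of chromosome 8 were among them. Without Clark 18a black repeat 1 the count was 34, with 22 of them among the 25, and these 8 were again called.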

How the data were processed

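The deposited table holds RPKM, computed by the authors, of 88647 models from 56044 genes, of which 15313 had more than 1 model; the longest cDNA stood for the gene. Alignment was with Bowtie 1, per the submitters' processing notes. Not given in the sources used here: build, annotation, strandedness and treatment of reads with several matches. RPKM times cDNA length gave whole hits for 100% of low values (tolerance 0.05), so hits per library were recovered; a hit may have been counted for several models.

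From these values, genes with at least 1 RPKM in at least 3 of 12 libraries (30775) were fitted with limma 3.58.1 in R 4.3.3 on log2(RPKM + 1), a pseudocount of 1, with 1 mean per group over all 12 libraries and an intensity trend. P-values are two-sided and adjusted by Benjamini-Hochberg over all genes tested, with a threshold of 0.05. The contrasts were Clark 18a minus Clark 8 in black, the same in yellow, and their difference, the interaction. An exact permutation of 3 against 3 cannot go below 0.1, so none was used. The steps were tested on simulated data that held no repeat 3 effect and no shared hits, so that test does not bear on either.

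Deviations of the same-numbered black libraries of the lines correlated at 0.322, 0.124 and 0.503 across genes in repeats 1, 2 and 3. The numbers were taken to pair the libraries, though no label says so. Deviations from a group mean cancel out, so a shift of repeat 3 shared by the lines can alone give positive values in repeats 1 and 2. Clark 18a repeat 1 correlated at 0.942 with Clark 8 repeat 2 and at 0.938 with repeat 1. Clark 18a repeat 2 correlated at 0.938 with Clark 8 repeat 2 and at 0.936 with repeat 1. For repeats 1 and 2 the pairing is thus an assumption, on which the block and the differences of pairs 1 and 2 rest.

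The members and lists were chosen with earlier results of these data known. The named genes were all called genes, the recalled AGO5 and chalcone synthase identifiers, up to 5 genes per direction with 0 hits in one line and a mean of at least 1 RPKM in the other, up to 5 per direction of the genes called in repeats 1 and 2 that differed by at least 1 in repeat 3, and up to 5 per direction of the interaction. Lists of other pathway genes were not used, because no table links identifiers to names.

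The 25 alternatives changed the pseudocount, filter, scaling, gene model, libraries, block or weights, used voom, or left out libraries; 1 of them, without repeat 3 and with the block, was added after seeing the data.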

Additional observations from a re-analysis of the deposited data

Results flagged for a closer look

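In 5 genes (0.0162% of those tested) the line difference itself differed between the black saddle and the yellow region, by limma's interaction test with Benjamini-Hochberg adjustment; 767 genes had an unadjusted p under 0.05. With the repeat as a block none of the 5 passed, at adjusted p of 0.0602 to 0.144.

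In 2 of them the black difference was the more negative. Glyma.08G109400, one of the recalled chalcone synthases of chromosome 8, had 2.15, 2.65 and 2.91 RPKM in Clark 18a and 12.1, 12.1 and 13.1 RPKM in Clark 8 in black (interaction log2 -1.80, SE 0.22, adjusted p = 0.0434). Glyma.11G073700 had in yellow 1.00, 1.39 and 0.808 RPKM in Clark 18a and 2.80, 3.03 and 2.28 RPKM in Clark 8, with the larger black difference given above (interaction log2 -1.54, adjusted p = 0.0286).

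In the other 3 the line difference lay in yellow. Glyma.03G074000 had in yellow 0.257, 0.539 and 0.933 RPKM in Clark 18a and 9.07, 11.6 and 6.28 RPKM in Clark 8, whereas in black it had 0.851, 1.65 and 1.70 RPKM in Clark 18a and 0.772, 1.01 and 0.881 RPKM in Clark 8 (interaction log2 2.98, adjusted p = 0.0286). Glyma.10G002200 had in yellow 0.0235, 0.116 and 0.252 RPKM in Clark 18a and 7.17, 5.95 and 3.44 RPKM in Clark 8 (interaction log2 2.49, adjusted p = 0.0286). Glyma.02G002100 had in yellow 0.0117, 0.0553 and 0.0947 RPKM in Clark 18a and 2.68, 2.10 and 1.55 RPKM in Clark 8 (interaction log2 1.56, adjusted p = 0.0483). None of these 3 was called between the lines in black. Glyma.10G002200 and Glyma.02G002100 share a coding length of 453 bases and a cDNA length of 1062 bases. Whether they share hits was not tested, so they may not be independent measurements. The number of interaction calls was 0 without any 1 of the Clark 8 black libraries, without Clark 18a black repeat 3, or without yellow repeat 1 or 2 of either line, where between 459 and 828 genes had an unadjusted p under 0.05 in limma. It was 1 without Clark 18a black repeat 2.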

How the results depend on the processing

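The count of 25 genes in black was 48 with no filter on low values, 14 with a minimum of 5 RPKM, 11 with only the 6 black libraries in the fit, 76 (38 higher, 38 lower) with array weights, 16 (2 higher, 14 lower) with voom on the recovered hits, and 17 to 45 when 1 library was left out. It was 17 without Clark 8 black repeat 1 and 45, 22 higher and 23 lower, without Clark 18a black repeat 3. Without the repeat 3 libraries it was 1240, and 1554 with the block as well. The replicate block gave 52 and changed no call among the 25; of the genes named beyond them, it added those given above with a block p under 0.05.

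The 5 interaction genes became 10 with no filter, 28 with array weights, 1 without repeat 3 (also 1 with the block) and 0 to 7 when 1 library was left out. They became 0 in limma with a pseudocount of 0.1, a minimum of 5 RPKM, the block or voom, where 727, 338, 1405 and 808 genes had an unadjusted p under 0.05. With only the 6 black libraries the interaction cannot be computed. The share of genes keeping their direction in repeat 3 was 47.2% with median-ratio scaling, against 50.2%. In both, a difference of exactly 0 was counted as not kept. Over the named genes, no alternative reversed a called direction, and 136 values fell below the threshold, 50 rose past it and 890 kept their side. The cause of these changes was not tested. Genes that did not reach 1 RPKM in at least 3 of 12 libraries were left out of the main test.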
